A study of Glycine max with 54 samples.

Results

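The comparison described here is between whole 2 mm seeds of a high yield line and a low yield line of soybean (Glycine max). It rests on 6 arrays, 3 per line, of the 54 arrays of the study. The members were chosen by sample title: every array of 2007 from the smallest seed length and from 1 of these 2 lines. The high yield line is genotype 6049-273 and the low yield line is genotype 6049-32. Both are recombinant inbred lines from a cross of the varieties Archer and Minsoy, and per the labels they mature at similar times and differ in yield. Each was grown in 2007 in St Paul, Minnesota, as a single row, and 3 samples were taken per line and seed length. Only 1 line stands for each yield class, so a difference between them belongs to these genotypes. The 3 samples of a line came from 1 row, and p-values measure the spread between such samples only. The other groups used here are the same lines at seed lengths of 3.5 mm and 5-6 mm, and both parents at 2 mm in 2007 and 2008, again with 3 arrays each.

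A soybean seed of this size is still building its tissues. The seed coat surrounds a small embryo, and the genes of reserve storage (globulins, albumins, oil synthesis and protease inhibitors) are only beginning to be used. As the seed lengthens, cell division gives way to filling of the cotyledons, and these transcripts come to dominate the RNA. A whole-seed sample mixes coat, embryo and remaining endosperm, so fewer cells of a type and less RNA per cell cannot be told apart in these values. A recombinant inbred line carries a fixed mosaic of both parental genomes. The parental values at the same seed length are therefore given beside the results.

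The values are deposited log2 signals, so that a difference of 1 is a 2-fold difference. Of 37744 probe sets, 23581 that were no controls and reached a log2 signal of 5 in at least 3 of the 6 arrays were tested. A probe set was called at an adjusted p under 0.05 (limma with Benjamini-Hochberg adjustment over all tested probe sets). SCB1, the seed coat BURP domain gene, marks the tissue and was at 16.01, 16.01 and 16.25 in the high yield line and 15.90, 16.23 and 16.05 in the low yield line. The summed level of the 5 seed coat genes, of which SCB1 is the most abundant, was 16.52 to 16.70 in the high and 16.58 to 16.74 in the low yield line. Without low yield replicate 1 their single differences ran from -3.72 to 3.61, and 3 of the 5 were over 2-fold. The arrays that stood apart have to be named before any result.

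The array labelled low yield line 2 mm replicate 1 stood apart from the other 2 of its group. A stage score was taken as the mean of 200 probe sets that rose minus the mean of 200 that fell from 2 mm to 5-6 mm in the parents of 2007, set to average 0 over the 18 arrays of the recombinant lines. The 3 high yield arrays at 2 mm scored -3.99, -4.01 and -3.73. Low yield replicates 2 and 3 scored -2.38 and -2.76, but replicate 1 scored 2.82, among the 5-6 mm arrays (1.86 to 3.20). Over the tested probe sets it differed from high yield line 5-6 mm replicate 2 with an SD of 0.225 (r = 0.995), and from the other low yield arrays at 2 mm with an SD of 1.09 and 1.11. A line score was set at 0 for the mean of low yield replicates 2 and 3 and at 1 for the high yield mean, as the median over 119 probe sets that were called without replicate 1, differed by 2-fold or more and had no stage call in the parents. Replicate 1 scored 0.79 there, like 2 of the 3 high yield arrays at 5-6 mm (0.75 and 0.77). The library labelled low yield line 2 mm replicate 1 was thus closest to an older seed of the other line. The counts of calls and the differences at 2 mm are given with and without it.

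A pair of arrays in the high yield group was closer than any other pair of the recombinant lines. High yield replicates 1 and 2 differed with an SD of 0.197 (r = 0.996). The other pairs at 2 mm differed with an SD of 0.444 or more, and the smallest value among the parents was 0.285. High yield line 5-6 mm replicate 1 was similarly close to low yield line 5-6 mm replicate 3 (SD 0.219) and had a line score of 0.42 beside 0.38. Whether such pairs share a sample was not tested. Counting replicates 1 and 2 as 1 array gives the values named below. Signal from the 3′ minus the 5′ end of actin, a sign of RNA integrity, was 2.31, 2.32 and 1.51 in the high yield arrays and 1.345, 1.88 and 1.54 in the low yield arrays. The part of RNA integrity in the results was not tested.

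**Figure D1:**
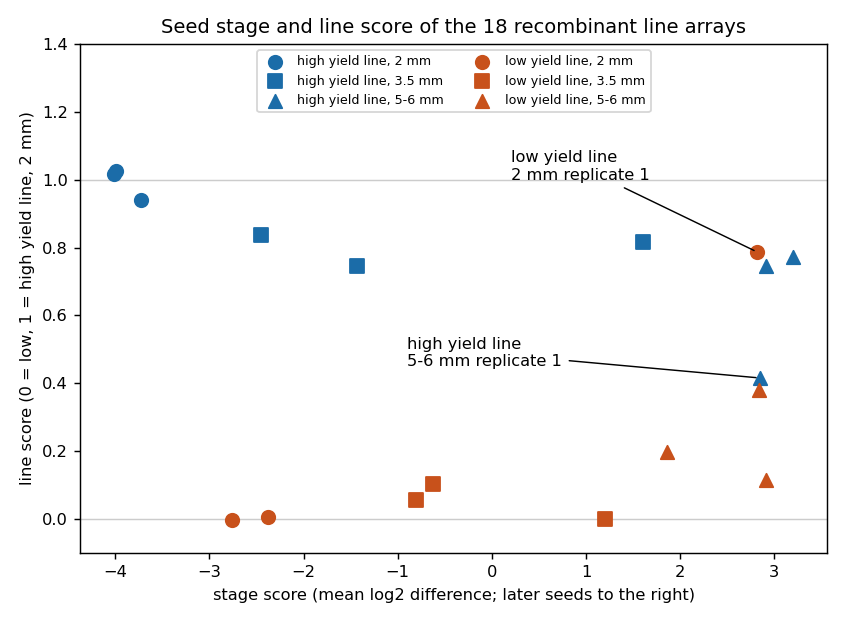
Stage score (x axis, mean log2 difference, later seeds to the right) and line score (y axis, 0 for low yield replicates 2 and 3 and 1 for the high yield line at 2 mm) of the 18 arrays of the recombinant lines, 1 point per array. Low yield line 2 mm replicate 1 lies at 2.82 and 0.79, among high yield arrays at 5-6 mm, and the high yield arrays at 2 mm lie to the left of low yield replicates 2 and 3.

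At 2 mm the 2 lines differed in a small share of the transcripts, with large differences in both directions. The largest differences in favour of the high yield line were those of genes with low signals in low yield replicates 2 and 3, among them BZIP94, of the basic leucine zipper factors. Lower in the high yield line were the stress factor gene DREB1, the jasmonate synthesis gene AOS1, the sugar transporter gene SWEET13 and the phenylpropanoid gene CYP98A2. With all 6 arrays, 470 probe sets were called, 1.99% of those tested, of which 246 were higher in the high yield line (1.04%) and 224 lower (0.950%). Without low yield replicate 1, 350 were called (1.48%), 189 higher (0.801%) and 161 lower (0.683%). Both fits called 228 of them with the same sign (0.967%), 121 higher (0.513%) and 107 lower (0.454%), and 0 with opposite signs. These 228 are 48.5% of the calls with all arrays and 65.1% of those without replicate 1. With high yield replicates 1 and 2 averaged to 1 array, the 3 counts fell to 105, 123 and 66. The calls also rested on single arrays. With all arrays the count was 99 without high yield replicate 1, 122 without high yield replicate 2, 230 without low yield replicate 2 and 269 without low yield replicate 3. In the fit without low yield replicate 1 it was 113, 133, 41 and 42 when these same arrays were left out in turn. The last 2 of these leave a single low yield array, whose spread is assumed to be that of the other groups. Of the 228, 201 differed by 2-fold or more with all arrays.

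Most of these probe sets have no gene name here. The 228 include 63 with 1 annotated gene, 57 genes in all, and 12 genes have a descriptive symbol. Higher in the high yield line were BZIP94, BZIP59, PUR3, SFERH-3, HDL56 (a homeodomain leucine zipper factor), SOMT-9 (an O-methyltransferase) and DRR1. Lower were DREB1, AOS1, CYP98A2, SWEET13 and PEPC7, a phosphoenolpyruvate carboxylase. For HDL56, SOMT-9 and PEPC7 the called probe set was not the brightest one of the gene. Seen per gene with its brightest probe set, 113 of 4722 genes were called with all arrays (2.39%) and 79 without replicate 1 (1.67%).

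Among the transcripts higher in the high yield line, several had high signals in that line and low ones in low yield replicates 2 and 3. BZIP94 had log2 signals of 8.41, 8.38 and 7.84 in the high yield arrays, 2.11 and 2.05 in low yield replicates 2 and 3, and 6.95 in replicate 1. The groups did not overlap, and replicate 1 lay nearer to the high yield arrays. The difference was 4.51 (SE 1.09, adjusted p = 0.0497) with all arrays and 6.13 (SE 0.76, adjusted p = 0.00163) without replicate 1. A second probe set of BZIP94 was under a log2 of 5 in all 6 arrays and was not tested. It was at 3.37, 4.25 and 3.41 in the high yield arrays and 2.56 and 2.49 in low yield replicates 2 and 3. Replicate 1 lay with the low yield arrays there, at 2.69, so the large difference belongs to the first probe set. LOC100500577 was at 11.19, 11.32 and 10.91 in the high yield line, at 1.82 and 1.82 in low yield replicates 2 and 3, and at 8.85 in replicate 1. It had the largest difference among genes called in both fits, 6.98 (SE 1.67, adjusted p = 0.0477) and 9.32 without replicate 1 (SE 1.28, adjusted p = 0.0032). Both other probe sets of LOC100500577 differed the opposite way. The first was at 2.29, 2.26 and 2.22 in the high yield arrays, 12.005 and 11.97 in low yield replicates 2 and 3, and 1.97 in replicate 1, and the second at 3.08, 3.51 and 3.05 against 10.66 and 10.83, with replicate 1 at 2.29. They were not tested, since only 2 of the 6 arrays reached a log2 of 5, and the direction given for LOC100500577 belongs to 1 probe set of 3. LOC100791780 followed the same layout, with 8.66, 8.93 and 7.95 against 7.59, 3.98 and 3.97, and differences of 3.33 (SE 0.79, adjusted p = 0.0448) and 4.54 (SE 0.52, adjusted p = 0.000902). With high yield replicates 1 and 2 averaged, BZIP94 (adjusted p = 0.0105), LOC100500577 (adjusted p = 0.017) and LOC100791780 (adjusted p = 0.00663) were called without replicate 1 only. BZIP94, LOC100500577 and LOC100791780, and UGT708D1 and NAC6 below, were tested only through the high yield arrays and replicate 1. The mirror layout, with signal in low yield replicates 2 and 3 alone, could not pass the filter, so the number of genes laid out one way says nothing about the other. With no filter 447 probe sets were called without replicate 1, 245 higher and 202 lower.

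UGT708D1 had this layout most sharply. It encodes a flavonoid C-glucosyltransferase, an enzyme that attaches a sugar to the flavonoid ring through a carbon bond. Its signals were 9.43, 9.50 and 8.63 in the high yield arrays, 9.46 in low yield replicate 1, and 2.63 and 2.35 in low yield replicates 2 and 3. Replicate 1 lay inside the range of the high yield line. With all arrays the difference of 4.37 (SE 1.64, adjusted p = 0.208) was not called. Without replicate 1 it was 6.70 (SE 1.24, adjusted p = 0.0175), and with replicates 1 and 2 of the high yield line averaged as well it missed the threshold (adjusted p = 0.0743).

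Further genes were called only without replicate 1, whose signal lay beside the high yield arrays. NAC6, of the NAC transcription factors, was at 8.43, 8.71 and 6.94 against 3.88 and 4.0, with replicate 1 at 7.33 (4.08 without replicate 1, SE 0.81, adjusted p = 0.0266). SGT3, a glycosyltransferase of soyasaponin synthesis, was at 10.86, 10.82 and 10.50 against 8.64 and 7.60, with replicate 1 at 10.65 (2.60, SE 0.59, adjusted p = 0.0482). BZIP130 was at 11.39, 11.34 and 11.10 against 9.25 and 9.04, with replicate 1 at 10.82 (2.13, SE 0.37, adjusted p = 0.0124). In each of these the 3 high yield arrays lay above both remaining low yield arrays. KTI-3, a Kunitz trypsin inhibitor gene, was at 13.59, 13.66 and 13.63 against 12.18 and 11.88, with replicate 1 at 13.61 (1.60, SE 0.28, adjusted p = 0.0116). With all arrays the adjusted p of these 4 genes was 0.133, 0.223, 0.0911 and 0.173. With high yield replicates 1 and 2 averaged as well, KTI-3 stayed called (adjusted p = 0.0491), and NAC6 (adjusted p = 0.113), SGT3 (adjusted p = 0.162) and BZIP130 (adjusted p = 0.0589) did not.

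Other transcripts were higher in the high yield line against all 3 low yield arrays. LOC100500265 was at 7.58, 7.56 and 6.84 against 3.61, 3.53 and 3.60, a difference of 3.75 (SE 0.35, adjusted p = 0.000109) and of 3.77 without replicate 1 (adjusted p = 0.000583). LOC100786710 was at 5.31, 6.26 and 5.00 against 2.45, 2.75 and 2.65 (2.90, SE 0.34, adjusted p = 0.000712; 2.82 and adjusted p = 0.0032 without replicate 1). LOC100796706 was at 6.93, 7.12 and 6.74 against 4.61, 5.07 and 4.57 (2.18, SE 0.23, adjusted p = 0.00025; 2.11 and adjusted p = 0.00134 without replicate 1). All 3 low yield arrays lay together. The high yield arrays at 5-6 mm were low as well, at 3.53 to 3.65, 2.35 to 2.67 and 4.56 to 4.63 for these genes. The level of replicate 1, with its late stage score, therefore does not tell the lines apart here. The probe set GmaAffx.55657.1.S1_at, which has no gene name, was at 9.50, 9.33 and 9.10 against 1.53, 1.58 and 1.51 (7.77, SE 1.16, adjusted p = 0.00402; 7.77 and adjusted p = 0.0119 without replicate 1). A second unnamed one, Gma.9185.1.S1_at, was at 8.53, 8.46 and 7.32 against 1.94, 3.08 and 2.86 (5.48, SE 0.69, adjusted p = 0.00118; 5.13 and adjusted p = 0.00501 without replicate 1). Further genes with no overlap were LOC100807284 (3.52, and 3.58 without replicate 1), LOC100792940 (2.64 and 2.58), LOC100778185 (2.29 and 2.69), LOC100810117 (2.28 and 2.44) and LOC100796524 (2.28 and 2.02), each called in both fits. With high yield replicates 1 and 2 averaged, LOC100792940 stayed called (adjusted p = 0.00971, and 0.0262 without replicate 1) and the other 4 of these were called in neither fit (adjusted p = 0.0641 to 0.146). LOC100500265, LOC100786710, LOC100807284 and both unnamed probe sets reached a log2 of 5 only in the high yield arrays, so they were tested only because they are high there.

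Smaller differences concerned abundant transcripts of known role. SFERH-3 encodes a ferritin, the iron storage protein of plastids, and was at 12.81, 12.74 and 13.57 against 11.999, 11.16 and 12.07. It was 1.295 higher (SE 0.26, adjusted p = 0.024) and 1.42 higher without replicate 1 (adjusted p = 0.032). PUR3 encodes an enzyme of purine synthesis, glycinamide ribonucleotide transformylase, and was at 10.79, 10.76 and 10.70 against 9.78, 9.49 and 9.97. Its difference was 1.00 (SE 0.19, adjusted p = 0.0169) and 1.02 without replicate 1 (adjusted p = 0.0383). BZIP59 was at 13.30, 13.41 and 12.998 against 12.64, 12.52 and 12.27, a difference of 0.76 (SE 0.15, adjusted p = 0.0183) and of 0.84 without replicate 1 (adjusted p = 0.0213). Other tested probe sets of BZIP59 differed by 0.56 and 0.82 with all arrays (adjusted p = 0.187 and 0.177) and were called in neither fit. In all 3 genes the lines did not overlap, and with high yield replicates 1 and 2 averaged none of SFERH-3 (adjusted p = 0.058), PUR3 (adjusted p = 0.0806) and BZIP59 (adjusted p = 0.103) was called. The high yield arrays at 5-6 mm were at 11.70 to 12.37, 9.28 to 9.78 and 12.54 to 12.62 for these genes. The level of replicate 1 therefore does not tell the lines apart here either.

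**Figure D2:**
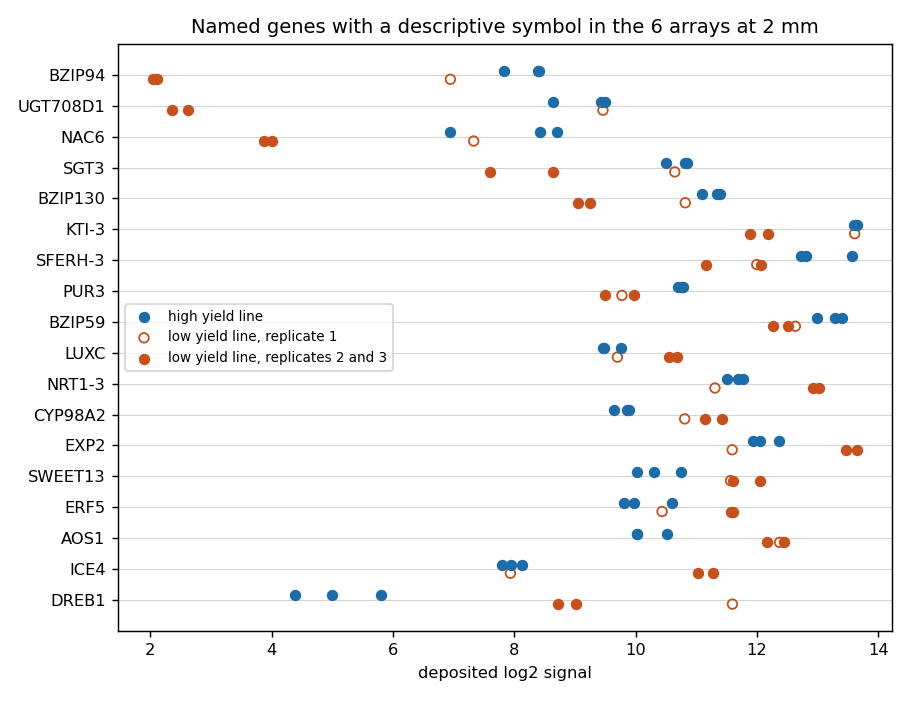
Deposited log2 signal (x axis) of 18 named genes (y axis) in the 6 arrays at 2 mm; filled points are the high yield line and low yield replicates 2 and 3, and the open point is low yield replicate 1. The open point of UGT708D1 (9.46), ICE4 (7.94) and KTI-3 (13.61) lies with the high yield line, and that of AOS1 (12.37) and SWEET13 (11.57) with the low yield line. The high yield arrays at 5-6 mm, not drawn, were at 11.97 to 12.43 for AOS1 and 11.72 to 11.73 for SWEET13.

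Among genes with a descriptive symbol, the largest decrease called in both fits was that of DREB1, which encodes an AP2-domain transcription factor of the dehydration and cold response. It was at 4.39, 5.00 and 5.80 in the high yield arrays and at 11.60, 9.01 and 8.73 in the low yield arrays. The lines did not overlap, and replicate 1 was the highest. The difference was -4.72 (SE 0.81, adjusted p = 0.0101), and -3.81 without replicate 1 (SE 0.75, adjusted p = 0.0255). LOC100793296, a CONSTANS-like gene with the synonym COL19, was at 3.44, 4.16 and 5.08 against 8.19, 7.12 and 7.41 (-3.35, SE 0.62, adjusted p = 0.0148; -3.04 and adjusted p = 0.0494 without replicate 1). The unnamed probe set Gma.7107.1.S1_at was at 2.84, 2.79 and 3.74 against 10.57, 8.95 and 9.33. It had the lowest adjusted p of the named features in this direction, with a difference of -6.49 (SE 0.53, adjusted p = 2.96e-05) and -6.01 without replicate 1 (adjusted p = 0.000162). The high yield arrays at 5-6 mm were also high, at 11.44 to 11.75 for DREB1 and 8.05 to 8.60 for LOC100793296. For Gma.7107.1.S1_at they were at 10.06 to 10.75. The level of replicate 1, with its late stage score, thus does not tell the lines apart in these features.

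AOS1 encodes allene oxide synthase, the enzyme that commits a lipid hydroperoxide to jasmonate synthesis. It was at 10.02, 10.03 and 10.52 in the high yield line and at 12.37, 12.46 and 12.17 in the low yield line, with no overlap. Its difference was -2.14 (SE 0.23, adjusted p = 0.000367), and -2.12 without replicate 1 (SE 0.27, adjusted p = 0.00182). A second probe set of the gene differed by -3.39 without passing (adjusted p = 0.0933). SWEET13, of the SWEET sugar exporters, was at 10.30, 10.02 and 10.75 against 11.57, 11.61 and 12.04 (-1.38, SE 0.24, adjusted p = 0.0101; -1.47 and adjusted p = 0.017 without replicate 1). CYP98A2, the cytochrome P450 that hydroxylates coumaroyl esters on the way to lignin, was at 9.90, 9.86 and 9.64 against 10.81, 11.15 and 11.42 (-1.33, SE 0.29, adjusted p = 0.0302; -1.48 and adjusted p = 0.0353 without replicate 1). All 6 probe sets of CYP98A2 that were tested were lower, and 3 were called in both fits. Averaging high yield replicates 1 and 2 left AOS1 called (adjusted p = 0.00411), but not SWEET13 (adjusted p = 0.058), CYP98A2 (adjusted p = 0.108), DREB1 (adjusted p = 0.0577) or LOC100793296 (adjusted p = 0.0793) with all arrays. The high yield arrays at 5-6 mm were also high, at 11.97 to 12.43 for AOS1 and 11.72 to 11.73 for SWEET13. For CYP98A2 they were at 10.79 to 10.99. The level of replicate 1, with its late stage score, thus does not tell the lines apart in AOS1, SWEET13 and CYP98A2.

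Genes without a role here made up the rest of the largest decreases. LOC732549 was at 3.09, 3.34 and 3.06 against 9.07, 7.45 and 8.68 (-5.24, SE 0.76, adjusted p = 0.00335; -4.90 and adjusted p = 0.0125 without replicate 1). LOC100305853 was at 4.34, 4.39 and 4.50 against 8.65, 7.81 and 9.20 (-4.15, SE 0.52, adjusted p = 0.00116; -4.10 and adjusted p = 0.00427 without replicate 1). LOC100170710 was at 7.98, 7.90 and 8.35 against 10.24, 10.29 and 10.17 (-2.16, SE 0.28, adjusted p = 0.00148; -2.16 and adjusted p = 0.00507 without replicate 1). In these 3 the low yield arrays lay together whether or not replicate 1 is counted. The high yield arrays at 5-6 mm were also high, at 8.98 to 10.83, 8.13 to 8.65 and 10.10 to 10.31. The level of replicate 1, with its late stage score, thus does not tell the lines apart in these genes. LOC100813627 (-4.42, and -3.83 without replicate 1), LOC100500338 (-4.17 and -4.37), LOC100777055 (-3.78 and -3.29), LOC100800249 (-3.74 and -3.53) and LOC100791805 (-2.77 and -2.96) were called in both fits as well. With high yield replicates 1 and 2 averaged, LOC100305853 (adjusted p = 0.00835, and 0.0221 without replicate 1), LOC100170710 (0.0124 and 0.027) and LOC100777055 (0.0222 and 0.0471) stayed called in both fits. LOC732549 (0.0206 and 0.0512), LOC100813627 (0.0396 and 0.0817) and LOC100800249 (0.0264 and 0.0642) were then called with all arrays only, and LOC100500338 and LOC100791805 in neither fit. The unnamed probe set GmaAffx.85832.1.S1_at was at 1.96, 1.96 and 1.93 against 6.60, 6.29 and 7.60 (-4.88, SE 0.98, adjusted p = 0.0219; -4.998 and adjusted p = 0.0472 without replicate 1). With the pair averaged it was called in neither fit (adjusted p = 0.0925, and 0.146 without replicate 1), and GmaAffx.55657.1.S1_at was called with all arrays only (0.0264 and 0.0512). LOC732549, LOC100305853, GmaAffx.85832.1.S1_at and Gma.7107.1.S1_at reached a log2 of 5 only in the low yield arrays. They were thus tested only because they are high there, and only through replicate 1 as the last array needed.

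A smaller set of genes was called lower only without replicate 1. ICE4, of the ICE-type bHLH factors that act upstream of cold response genes, was at 7.79, 8.13 and 7.95 in the high yield line, 11.28 and 11.03 in low yield replicates 2 and 3, and 7.94 in replicate 1. Its difference was -3.20 (SE 0.51, adjusted p = 0.00728) without replicate 1 and -2.12 (adjusted p = 0.165) with it. EXP2, an expansin that loosens cell walls, was at 11.93, 12.05 and 12.36 against 13.48 and 13.65, with replicate 1 at 11.59 (-1.45, SE 0.27, adjusted p = 0.0184; adjusted p = 0.393 with all arrays). ERF5 (-1.46, adjusted p = 0.0334), LUXC, of the evening clock component LUX (-1.05, adjusted p = 0.0259), and the nitrate transporter gene NRT1-3 (-1.32, adjusted p = 0.0499) were called in the same way, and their adjusted p was 0.13, 0.152 and 0.379 with all arrays. Other tested probe sets of EXP2 (-0.98 and -1.59 without replicate 1) and NRT1-3 (-0.86) were lower too but called in neither fit. With high yield replicates 1 and 2 averaged, ICE4 stayed called without replicate 1 (adjusted p = 0.0314), and EXP2, ERF5, LUXC and NRT1-3 did not (adjusted p = 0.0773 to 0.14). Conversely, NF-YA05 (-1.28, adjusted p = 0.0283), IFR1, an isoflavone reductase (-1.47, adjusted p = 0.0216), SGR2, a stay-green gene of chlorophyll breakdown (-2.39, adjusted p = 0.0474), MYB179 (-0.85, adjusted p = 0.0372) and GST3 (-2.85, adjusted p = 0.0497) were called lower only with all arrays. GASA21 (1.56, adjusted p = 0.0436) and BZIP124 (0.82, adjusted p = 0.0315) were called higher only with all arrays. Without replicate 1 the adjusted p of these 7 ranged from 0.0522 for BZIP124 to 0.14 for GASA21. Other tested probe sets of IFR1 differed by -1.59, -1.55 and -2.28 with all arrays and were called in neither fit.

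Reserve genes were the most uneven between arrays, and 0 of the 3 storage protein genes measured was called in either fit. With 2.39% of all genes called with all arrays and 1.67% without replicate 1, 0 is no result in so short a list. Without replicate 1 all 3 differed by 2-fold or more. GY1, a glycinin, was at 10.26, 10.36 and 6.83 in the high yield line, 5.27 and 1.84 in low yield replicates 2 and 3, and 13.40 in replicate 1. GM2S-1, a 2S albumin, was at 8.64, 8.29 and 2.38 against 2.04 and 2.28, with replicate 1 at 12.47. The high signals in the high yield line were thus those of replicates 1 and 2, the near-identical pair, and replicate 3 had GM2S-1 at the level of the low yield arrays. The median difference of the list was 1.75 with all arrays and 4.95 without replicate 1, beside 0.01 and -0.04 over all genes. The summed level of its genes was 11.33, 11.47 and 7.56 in the high yield arrays and 14.74, 6.31 and 3.78 in the low yield arrays. The protease inhibitors BBI (8.78, 8.67 and 2.101 against 11.33, 2.14 and 1.96) and D-II (11.39, 11.19 and 5.74 against 14.23, 4.67 and 2.02) and the lipoxygenase gene LOX2 (7.63, 7.67 and 2.13 against 11.88, 2.08 and 2.01) had the same layout and were not called. Of the 6 protease inhibitors, KTI-3 alone was called, without replicate 1.

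The late embryogenesis and seed maturation genes had 0 of 10 called in either fit (median -1.71 with all arrays and -0.24 without replicate 1). The share of all genes called was 2.39% with all arrays and 1.67% without replicate 1, so counts of 0 in this paragraph are no result. PM12 was at 5.35, 5.42 and 4.72 against 11.70, 7.94 and 7.32 (-2.46 without replicate 1, adjusted p = 0.218). In fatty acid and oil synthesis 0 of 19 were called (median -0.29 and -0.04). FAD2-1A, the seed oleate desaturase, was at 8.995, 8.87 and 8.34 against 13.99, 7.95 and 6.17. Without replicate 1 all 4 seed regulators had negative differences, with a median of -0.95, and 0 were called. LEC1-A, a master regulator of embryo development, was at 9.33, 9.63 and 10.16 against 13.20, 10.89 and 10.29. Without replicate 1 the lines lay close together there without overlapping.

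The lists on metabolism and supply are counted by the brightest probe set of each gene, beside 2.39% of all genes called with all arrays and 1.67% without replicate 1. Among 28 phenylpropanoid and flavonoid genes UGT708D1 was called higher and CYP98A2 lower without replicate 1, and with all arrays 0 were higher and 2 lower (CYP98A2 and IFR1). Their median was -0.18 without replicate 1. Over all 55 probe sets of this list 1 was called higher and 5 lower with all arrays, and 2 higher and 3 lower without replicate 1. SOMT-9 was among those higher by a dimmer probe set, in both fits (1.96, adjusted p = 0.0113; 1.67 and adjusted p = 0.0375 without replicate 1). Of 12 genes of sucrose, starch and sugar transport SWEET13 was called lower in both fits, and SUT1, a sucrose transporter, was not called at 6.68, 7.11 and 6.05 against 7.89, 5.14 and 5.26. Of 28 genes of nitrogen and amino acid supply NRT1-3 was called, without replicate 1, and of 16 lipoxygenase and jasmonate genes AOS1, in both fits. Of 5 soyasaponin genes SGT3 was called, without replicate 1. Its list had a median of 1.25 in that fit, with SGT2 at 12.55, 12.59 and 12.43 against 13.31, 11.43 and 10.75 and CYP93E1 at 10.53, 10.66 and 10.002 against 12.91, 9.82 and 8.55.

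The lists of regulators stand beside the same shares of all genes, 2.39% called with all arrays and 1.67% without replicate 1. Among transcription factors, 3 of 44 bZIP genes were called higher in each fit and 0 lower, with a list median of 0.07 without replicate 1. They were BZIP94 and BZIP59 in both fits, BZIP124 with all arrays and BZIP130 without replicate 1. Of 11 DREB, ERF and ICE genes 3 were called lower without replicate 1 (DREB1, ICE4 and ERF5), 1 with all arrays (DREB1), and 0 higher in either fit. NAC6 was called among 10 NAC genes, without replicate 1. MYB179 was called among 36 MYB genes, with all arrays, and 0 of 18 WRKY genes were called in either fit. In the clock and photoperiod list 2 of 9 were called lower without replicate 1, LUXC and LOC100793296, while LCL3 (9.37, 9.46 and 9.72 against 8.22, 8.49 and 8.03) and LHY (12.22, 12.13 and 11.94 against 11.39, 11.75 and 11.26) were not called.

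No called gene came from the tissue lists of seed coat (0 of 5 in either fit) or vegetative storage (0 of 6), and SGR2 was the single call among 18 photosynthesis and chlorophyll genes, with all arrays. Of all genes 2.39% were called with all arrays and 1.67% without replicate 1. Counts of 0 or 1 in lists this short are therefore no result about a tissue or topic. The summed level of the photosynthesis list was 15.80, 15.79 and 16.07 in the high yield arrays and 16.76, 16.17 and 16.42 in the low yield arrays. That of the vegetative storage list was 16.83, 16.77 and 17.04 against 16.02, 16.63 and 16.61. Ep, the seed coat peroxidase gene, was at 10.82, 10.78 and 10.67 against 14.70, 7.31 and 6.99, and HPS, the hydrophobic protein of the seed surface, at 5.55, 5.65 and 2.30 against 5.45, 6.53 and 9.91. The part of tissue composition in the results was not tested. Plant hormone genes (17 measured), aquaporins (17), heat shock genes (11), phosphoenolpyruvate carboxylases and their kinases (6) and defence genes (6) had 0 called in either fit by their brightest probe set. Of 22 glutathione S-transferases 1 was called, GST3, of 14 GASA peptides 1, GASA21, of 6 purine and ureide genes PUR3, of 3 ferritins SFERH-3 and of 7 cell wall genes EXP2.

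The called probe sets were set beside those that change as the parental seeds grow. In the parents of 2007, 13341 probe sets changed between 2 mm and 5-6 mm, 56.6% of those tested, and 23.2% rose and 33.3% fell. Of the 228 kept calls 173 did so (75.9%). Those higher in the high yield line were ones that fell with seed length in 91 cases and rose in 0, and those lower were ones that rose in 81 cases and fell in 1. Replicate 1, with its late stage score, is among the arrays behind these calls. Without it, 210 of 350 calls changed with stage (60.0%, near the 56.6% of all tested): 92 higher in the high yield line fell with seed length and 12 rose, and 87 lower in it rose and 19 fell. The stage score moved with the lines in these 5 arrays as well, with a mean of -3.91 in the high yield line and -2.57 in low yield replicates 2 and 3. DREB1, for example, rose by 3.95 with seed length in the parents, AOS1 by 0.93 and SWEET13 by 1.14. LOC100500265 fell by 1.87 in them. With the stage score as a covariate, 313 probe sets were called with all arrays, 309 without replicate 1, and 273 in both fits. Called in both main fits but in neither of these were CYP98A2, PUR3, SFERH-3, LOC100793296, LOC100810117 and LOC100778185 (adjusted p = 0.0519 to 0.109). LOC100500338, LOC100791805 and GmaAffx.85832.1.S1_at lost both calls too (0.053 to 0.126), and LOC100807284 that with all arrays (0.0996). The other features of the naming rule called in both main fits kept both calls, DREB1 at -2.83 and -2.80.

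The other 140 calls without replicate 1 had no stage call in the parents, and 85 were higher in the high yield line and 55 lower. Among them were UGT708D1, BZIP94, BZIP130, NAC6, SGT3, KTI-3 and ICE4. For these, replicate 1 lay beside the high yield arrays in the values given above. Over all 350 calls replicate 1 was nearer to the high yield mean in 143 and nearer to the low yield mean in 207. The reserve genes were laid out differently from the stage score: the 3 high yield arrays scored earliest, and 2 of them had GY1 and GM2S-1 above low yield replicates 2 and 3.

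**Figure D3:**
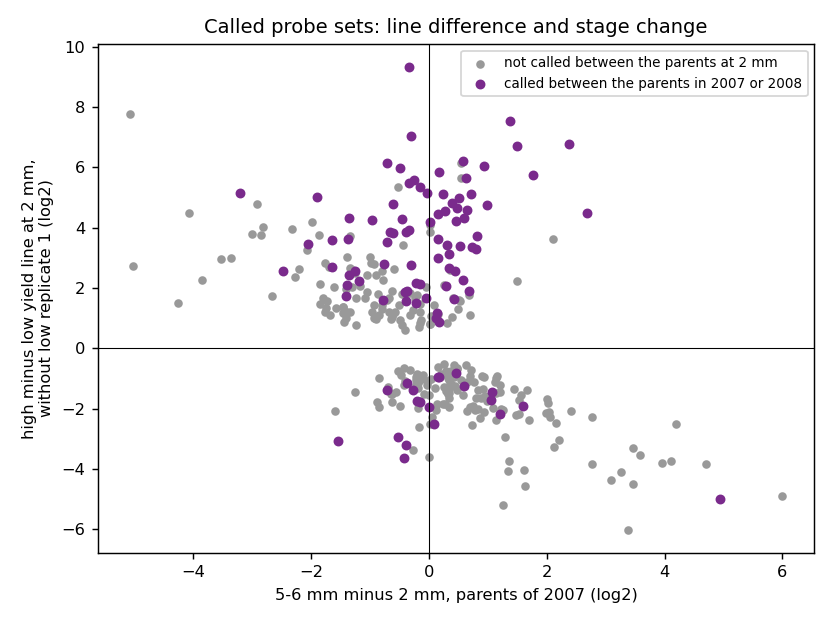
Log2 difference from 2 mm to 5-6 mm in the parents of 2007 (x axis) and high minus low yield line at 2 mm without low yield replicate 1 (y axis, log2) for the 350 called probe sets, 1 point each; purple points were called between the parents at 2 mm in 2007 or 2008. Of the probe sets with a stage call, 92 lie in the upper left, 87 in the lower right, 12 in the upper right and 19 in the lower left.

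The comparison between the parents asked whether the same transcripts separate Archer from Minsoy at 2 mm. Archer and Minsoy differed in 417 probe sets in 2007 (1.77%) and in 207 in 2008 (0.878%). The count of 2007 was 252, 218 and 268 without Archer replicate 1, 2 or 3 and 244 without Minsoy replicate 3. Of the 228 kept calls 37 were called between the parents in 2007, and in all 37 the high yield line differed in the direction of Archer. These are 8.87% of the parental calls of 2007. In 2008 the number was 12 (5.80% of that year's calls), and all 12 were in the direction of Archer. In either year it was 40 (17.54%), beside 2.19% of all tested probe sets. Of these 40, 26 had a stage call. The stage score at 2 mm in 2007 was -4.41, -5.01 and -4.36 in Archer and -4.21, -3.44 and -4.27 in Minsoy. Archer thus scored earlier in 2007, as the high yield line did. In 2008 Archer scored -2.13, -1.90 and -1.95, between Minsoy replicates 2 and 3 (-2.52 and -1.84), while Minsoy replicate 1 scored 2.36. For calls with a stage call, sharing the direction of Archer and being earlier in stage cannot be told apart. Without low yield replicate 1, 87 of 350 were called in 2007, 86 as in Archer, and 40 in 2008, 38 as in Archer. The parental arrays of 2008 include Minsoy 2 mm replicate 1, whose stage score of 2.36 stood apart from the other 5 (-2.52 to -1.84). Without that array 172 probe sets were called in 2008, among them 9 of the 228 (9 as in Archer) and 35 of the 350 (34 as in Archer).

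Calls with and without a stage call can be set beside the parents separately. Without replicate 1, 58 of the 140 calls with no stage call were called between the parents in either year (41.4%, beside 2.38% of all probe sets with no stage call), 57 of them as in Archer in each year called. Of the 210 with a stage call 39 were (18.6%, beside 2.04% of all probe sets with one). LOC100500577 was at 10.63, 11.04 and 10.79 in Archer and 1.96, 6.27 and 1.96 in Minsoy in 2007, and at 9.45, 9.30 and 9.76 against 1.96 in all 3 Minsoy arrays in 2008, where 1.96 is the lowest value of those arrays. UGT708D1 was at 9.45, 9.51 and 10.11 in Archer against 5.69, 7.56 and 4.78 in Minsoy in 2007 (3.68, SE 0.93, adjusted p = 0.0667). In 2008 it was at 8.50, 8.93 and 8.89 against 2.96, 2.96 and 2.97 (5.81, SE 0.39, adjusted p = 7.86e-07). Archer was the higher parent in both years, as the high yield line was the higher of the recombinant lines.

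ICE4 was lower in Archer in both years, as it was lower in the high yield line. It was at 8.11, 8.03 and 8.42 in Archer and 10.91, 10.53 and 10.35 in Minsoy in 2007 (-2.41, SE 0.32, adjusted p = 0.000932), and differed by -1.83 in 2008 (SE 0.33, adjusted p = 0.0116). BZIP130 was at 8.43, 8.50 and 8.65 against 6.88, 6.53 and 6.67 in 2007 (1.83, adjusted p = 2.31e-06) and 1.23 higher in Archer in 2008 (adjusted p = 0.00029). LOC100791780 was 2.06 higher in Archer in 2007 (adjusted p = 0.0202) and 2.35 higher in 2008 (adjusted p = 0.00031). LOC100807284, LOC100778185, LOC100796706 and LOC100786182 were also called in the direction of Archer in 2007, the first of them in 2008 too. BZIP94 departed from this pattern: it was at the lowest value, 1.96, in all 12 parental arrays at 2 mm and at 7.84 to 8.41 in the high yield line. The parents and the recombinant lines differ in their lowest values and are taken to have been processed apart, so that these levels are not compared. DREB1 (-1.01, adjusted p = 0.567), AOS1 (-1.18, adjusted p = 0.143) and SWEET13 (-0.56, adjusted p = 0.227) were not called between the parents in 2007.

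The change of the line difference with seed length was tested for each probe set. The difference at 2 mm minus that at 3.5 mm was called for 8 probe sets (0.0339%), 7 of them higher in the high yield line at 2 mm (0.0297%) and 1 lower (0.00424%), and the difference at 2 mm minus that at 5-6 mm for 25 (0.106%), 22 of them higher (0.0933%) and 3 lower (0.0127%). Without low yield replicate 1 the counts were 7 (0.0297%) and 18 (0.0763%). Single arrays moved them too: the first was 5 without high yield replicate 2 and 28 without high yield replicate 3, and the second 12 without high yield replicate 1, 15 without low yield replicate 3 and 64 without high yield replicate 3. LOC100500265 lost most of its difference, from 3.75 at 2 mm to 1.11 at 3.5 mm and 0.34 at 5-6 mm, a change of 3.41 to 5-6 mm (SE 0.50, adjusted p = 0.0139, and 0.0454 without replicate 1). LOC100796706 went from 2.18 to 0.70 and -0.00895 (2.19, adjusted p = 0.0139), and LOC100786710 from 2.90 to 1.37 and -0.0835 (2.99, adjusted p = 0.0262, and 0.0764 without replicate 1). LOC100792940 changed by 2.75 (adjusted p = 0.048, and 0.118 without replicate 1). Gma.7107.1.S1_at went from -6.49 to -0.87 and 0.21 and was called for both changes (-5.62, adjusted p = 0.0121; -6.70, adjusted p = 0.00154). In the high yield line its signal was 2.79 to 3.74 at 2 mm and 8.20 to 10.75 at the larger seed lengths, near the low yield arrays of 8.95 to 10.83.

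Between the lines, 4 probe sets were called at 3.5 mm (0.0170%) and 0 at 5-6 mm in the limma fit with all arrays. There 1346 and 395 had an unadjusted p under 0.05, beside 3664 at 2 mm. Low yield 2 mm replicate 1 is in that fit and enters the shared spread at every length. Calls at 3.5 mm and 5-6 mm were not counted without it. Of the 228 kept calls 208 had the same sign at 3.5 mm and 162 at 5-6 mm, beside 55.4% and 45.0% of all probe sets. Their median size in the direction of the 2 mm call was 1.92 at 2 mm (without replicate 1), 0.58 at 3.5 mm and 0.18 at 5-6 mm. These calls were chosen, and their direction set, by the test at 2 mm, so a smaller median at the other lengths follows in part from that choice. At 3.5 mm the actin 3′ minus 5′ signal was 3.07, 1.74 and 2.96 in the high yield arrays. In the low yield arrays it was 3.30, 1.38 and 3.36. Stage scores were -1.44, -2.46 and 1.60 in the former and -0.80, 1.20 and -0.63 in the latter. The part of either in the smaller median was not tested. The 140 calls without replicate 1 that had no stage call had a median of 1.18 at 3.5 mm and 0.58 at 5-6 mm, beside 1.85 at 2 mm, and 130 and 127 of them had the same sign. The 210 with a stage call went from 1.93 to 0.58 and 0.18. BZIP94 differed by 5.68 (SE 1.09) at 3.5 mm and 2.19 (SE 1.09) at 5-6 mm, UGT708D1 by 6.51 (SE 1.64) and 3.18 (SE 1.64), and ICE4 by -2.30 (SE 0.72) and -1.87 (SE 0.72). None of these 3 had a called change with seed length. At 3.5 mm BZIP94 was at 8.45, 7.99 and 8.05 against 2.46, 2.28 and 2.71 (adjusted p = 0.116 with all arrays). UGT708D1 was at 9.74, 9.44 and 9.77 against 3.43, 2.45 and 3.53 there (adjusted p = 0.234). Neither was called at that length, although the lines did not overlap. At 5-6 mm the low yield line itself was split for UGT708D1, at 8.33, 2.49 and 7.67, and for BZIP94, at 5.44, 2.28 and 5.28.

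**Figure D4:**
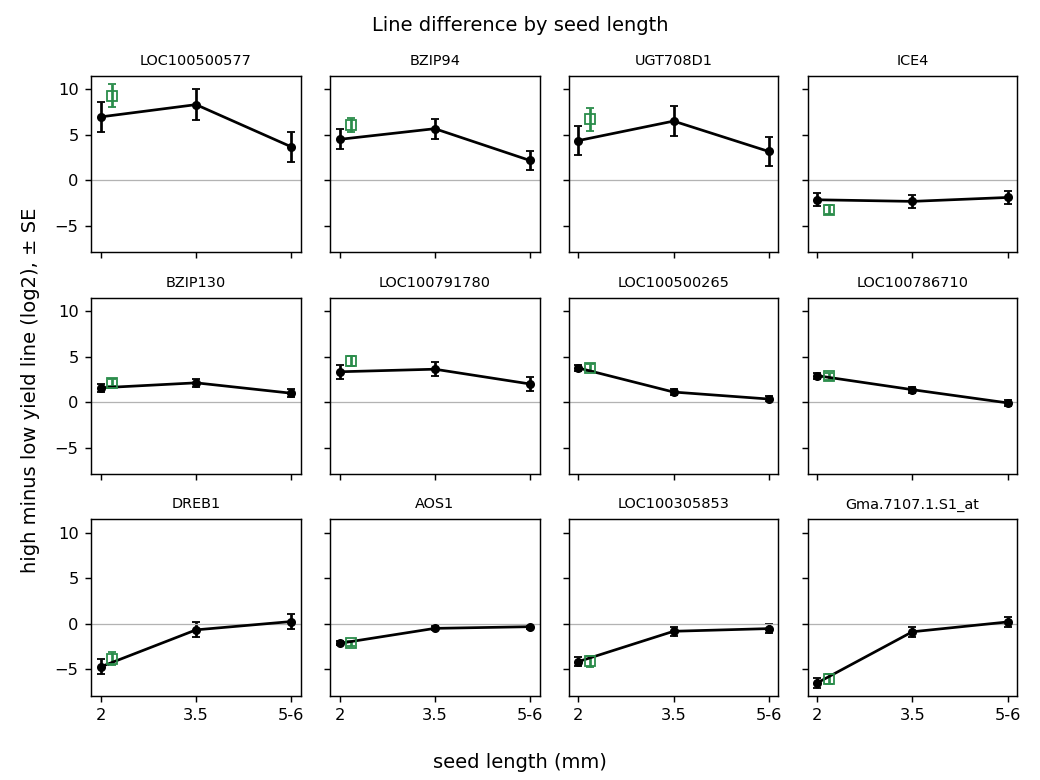
High minus low yield line (y axis, log2, error bars 1 SE) at seed lengths of 2, 3.5 and 5-6 mm (x axis) for 12 named features; black points are the fit with all arrays and the green square is the 2 mm value without low yield replicate 1. BZIP94, UGT708D1 and ICE4 kept the sign of their difference at all 3 lengths, while LOC100500265 and Gma.7107.1.S1_at came close to 0 at 5-6 mm.

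The position of called genes relative to each other was described last. The order of genes was taken from the soybean assembly Glycine_max_v4.0, on which 4711 of the 4722 genes were placed. Without replicate 1, 9 of 79 called genes (11.4%) had another called gene among the 5 nearest measured genes on either side, as did 15.4% of the genes that were not called. LOC100778550, LOC100500236 and LOC100786710 lay within 5 measured genes of each other and were all higher in the high yield line, by 5.75, 5.12 and 2.82 without replicate 1. The first and second of them were also called in the direction of Archer in both years.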

How the data were processed

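Biotin-labelled cRNA from whole-seed total RNA was measured on the Affymetrix soybean array, with 1 array for each sample. The authors deposited log2 values, made with GCRMA per the submitters' processing notes (version not given in the sources used here). The lowest values differed between the 3 sets of 18 arrays (1.959 in the parents of 2007, 1.962 in those of 2008 and -1.56 in the recombinant lines). The sets are therefore taken to have been processed apart, which the labels do not state, and levels were compared only within a set. Array intensities give no read depth; the 3 arrays per group limit the precision.

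Control probe sets (126 Affymetrix, 48 ribosomal RNA) were left out. With R 4.3.3 and limma 3.58.1, 1 mean per group was fitted to the 18 arrays of the recombinant lines (lmFit, eBayes). The Benjamini-Hochberg adjustment covered 23581 probe sets. Parents were fitted by year. The script was tested on simulated data. Of all probe sets, 8677 had 1 gene in the annotation, 370 several and 28523 none.

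Named genes were, with the brightest probe set of each gene, the 10 largest differences each way called in both fits, up to 4 called members per list, the 3 largest each way for each change with seed length, 5 each way shared with the parents, and 2 unnamed probe sets each way. The members, the comparison, this rule and the lists were chosen with earlier results of these data known, so that no list is independent evidence. List members beyond the rule are given as examples, and HDL56, SOMT-9, DRR1, PEPC7, LOC100778550 and LOC100500236 were named after their values were seen. For low yield line 3.5 mm replicate 3 title and description disagree, and the title was used. Alternatives are given in the closing section.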

Additional observations from a re-analysis of the deposited data

Results flagged for a closer look

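The test of the change of the line difference with seed length marked 8 probe sets from 2 mm to 3.5 mm and 25 from 2 mm to 5-6 mm. From 2 mm to 5-6 mm the difference changed by 3.41 for LOC100500265, 2.99 for LOC100786710, 2.75 for LOC100792940 and 2.19 for LOC100796706, each higher in the high yield line at 2 mm. The unnamed probe set Gma.7107.1.S1_at changed by -5.62 from 2 mm to 3.5 mm and by -6.70 to 5-6 mm. Groups of 3 arrays are too small for a test of single outlying arrays.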

How the results depend on the processing

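The numbers of calls depended on the processing, while none of the 49 named genes and probe sets changed sign in any of the 19 alternatives. They were named for their differences in these same arrays, so a kept sign is no independent evidence. Of their values with all arrays under the alternatives, 691 stayed on the same side of the threshold, called or not, 199 lost the call and 31 gained one. Of the 49, only Gma.7107.1.S1_at was called under every alternative of both fits. Counts are given in the order all arrays, without low yield replicate 1, and both (470, 350 and 228 as reported). They stayed within 1.5 times under no filter (507, 447, 262, with 314 higher and 193 lower with all arrays), quantile normalization, median centring and trended robust eBayes. The stricter filter at a log2 of 7 left 150 in both. Fits over other samples gave 1964, 1055 and 875 (all 54 arrays) and 128, 807 and 128 (only the 2 mm arrays, 84 higher and 44 lower with all 6). Only probe sets with 1 gene gave 152, 108 and 72, where fewer probe sets were tested. Array weights gave 7047, 4924 and 4811, with the highest weights on high yield replicates 1 (5.72) and 2 (4.66). With these 2 averaged, chosen after seeing the data, the counts were 105, 123 and 66. The stage score as a covariate gave 313 with all arrays. The other causes were not tested.

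The replicate block gave 187, 19 and 16 calls. Same-numbered 2 mm arrays of the lines had residual correlations of -0.02, 0.31 and 0.18, and unlike-numbered ones of -0.28 to 0.19. With 3 arrays per group, of which low yield replicate 1 stood apart, these values cannot decide whether the numbers pair samples. The main fit does not pair them. Leaving out each 2 mm array, or high yield 5-6 mm replicate 1, in turn gave 99 to 380, 41 to 366 and 25 to 238 calls. The lowest values in the fits without low yield replicate 1 leave a single low yield array, whose spread is assumed to be that of the other groups. The change to 3.5 mm (8 calls) gave 21 with no filter, 2 with the stricter filter, 14 with quantile normalization, 3 with the replicate block, 2654 with array weights, 85 with all 54 arrays, 0 with 1-gene probe sets and 5 to 28 leaving out an array. The change to 5-6 mm (25 calls) gave 5 with the stricter filter, 7 with the replicate block, 12 with trended robust eBayes, 1434 with array weights, 284 with all 54 arrays, 5 with 1-gene probe sets, 12 with the averaged pair, 13 without low yield 2 mm replicate 1 and high yield 5-6 mm replicate 1, and 12 to 64 leaving out an array. Leaving out a parental array gave 218 to 303 calls in 2007 and 157 to 189 in 2008. With 3 arrays per group, or 2, a difference that was not called is not shown to be absent.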
